A study of Mus musculus with 2 samples.

Results

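The actin genes of mouse muscle were followed from satellite cells, the stem cells of skeletal muscle, to muscle fibre transcripts. The set was chosen by symbol and holds 5 of the 32285 counted features: Acta1, Actc1, Acta2, Actb and Actg1. All 5 were counted in both libraries of the series. The related genes Actg2 and Actbl2 had 0 UMIs in either library and were not followed further. Satellite cells were sorted by fluorescence from the tibialis anterior (TA) muscle of mice aged 8 weeks with the genotype Pax7 CreERT2/+ ;Rosa26 mTmG/+, so both groups carry a Cre recombinase driven from Pax7 and the mTmG reporter. The QSC (quiescent satellite cell) library came from uninjured muscle, and the ASC (activated satellite cell) library from muscle taken 1.5 days after injection of cardiotoxin (CTX), which destroys fibres. Per the study each library was a pool of cells from 5 mice, and there was 1 library per group, so group and library cannot be told apart and no difference below has a replicate check.

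Actin is the protein of thin and cytoplasmic filaments, and mammals encode it in a small family of nearly identical proteins that are used in different cells. Acta1 encodes the skeletal muscle actin of adult fibres, Actc1 the cardiac actin that skeletal muscle uses while it forms, and Acta2 the smooth muscle actin, which is also made by differentiating myoblasts and by stressed fibroblasts. Actb and Actg1 encode the cytoplasmic actins that most cells use for shape, movement and division. In textbook myogenesis the cytoplasmic forms give way to the muscle forms when myoblasts leave the cell cycle and fuse. Serum response factor (SRF) and its cofactors, which sense free actin monomer, bind the CArG box in the promoters of many actin genes.

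The genes are spread over 5 chromosomes, and each is a protein-coding gene on the minus strand of GRCm38 (GENCODE M21). Acta1 (ENSMUSG00000031972) lies at chr8:123891769-123894751, Actc1 (ENSMUSG00000068614) at chr2:114047282-114053548 and Acta2 (ENSMUSG00000035783) at chr19:34241090-34255590. Actb (ENSMUSG00000029580) lies at chr5:142903115-142906754 and Actg1 (ENSMUSG00000062825) at chr11:120345690-120348542. Acta1 and Actc1 each overlap a gene annotated on the opposite strand that was not among the counted features. The coding sequences have 1134 bases in the 3 muscle genes and 1128 in the cytoplasmic pair, and any 2 of them are 81.5% to 88.7% identical. The 3′ untranslated regions, where this chemistry reads, were 17.7% to 41.6% identical between genes and 184 (Actc1) to 700 (Actg1) bases long. The last 300 transcript bases matched no other gene over at least 90 bases at 90% identity for Acta1, Acta2 and Actg1. For Actb they matched Lrrc58. For Actc1, where the window reaches into the coding sequence, they matched 4 genes, of which Actg1 and Actg2 were counted features. Counts of Actc1 and Actb are less certain for this reason.

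The matched promoters are shown because they hold the element that members of the family share. They are the 250 bases before the RefSeq start (GRCm38.p6), written 5′ to 3′ along the gene, with capitals marking CArG boxes, here CC and GG around 6 bases of A or T, with at most 1 mismatch. Entries were matched for 4 of the 5 genes, Actb being the other. The RefSeq starts of Actc1, Acta2 and Actg1 lie inside their GENCODE genes, so these windows lie wholly (Actc1) or partly within the annotated genes.
Acta1 promoter, chr8:123894776-123895025, minus strand: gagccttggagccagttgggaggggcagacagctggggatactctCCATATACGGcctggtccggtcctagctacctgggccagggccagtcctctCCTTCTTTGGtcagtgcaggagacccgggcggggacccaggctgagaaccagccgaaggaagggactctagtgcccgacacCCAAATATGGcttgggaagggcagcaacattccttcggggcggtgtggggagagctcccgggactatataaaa
Actc1 promoter, chr2:114052876-114053125, minus strand: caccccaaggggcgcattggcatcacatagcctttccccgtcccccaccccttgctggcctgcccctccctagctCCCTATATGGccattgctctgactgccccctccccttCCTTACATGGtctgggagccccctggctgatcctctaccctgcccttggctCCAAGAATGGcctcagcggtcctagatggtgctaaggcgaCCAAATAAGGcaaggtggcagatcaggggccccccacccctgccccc
Acta2 promoter, chr19:34255374-34255623, minus strand: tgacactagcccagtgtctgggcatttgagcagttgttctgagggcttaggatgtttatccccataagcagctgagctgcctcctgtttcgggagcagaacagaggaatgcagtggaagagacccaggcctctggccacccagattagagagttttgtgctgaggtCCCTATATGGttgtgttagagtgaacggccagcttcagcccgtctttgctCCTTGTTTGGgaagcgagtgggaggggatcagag
Actg1 promoter, chr11:120348496-120348745, minus strand: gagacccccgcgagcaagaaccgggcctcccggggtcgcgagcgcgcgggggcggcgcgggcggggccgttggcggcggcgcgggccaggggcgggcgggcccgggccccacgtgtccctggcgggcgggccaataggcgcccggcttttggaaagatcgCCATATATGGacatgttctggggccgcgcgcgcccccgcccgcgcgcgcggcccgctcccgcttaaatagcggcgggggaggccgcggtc
Full boxes stood in Acta1 (bases -73 to -64, counted from the start), Actc1 (-47 to -38) and Actg1 (-90 to -81). Acta2 had 2 boxes with 1 mismatch each, and its box at -84 to -75 has the same 10 letters as the Actc1 box at -175 to -166. A full box was found in 1.63% of 32817 promoter windows of 300 bases, and a box with at most 1 mismatch in 9.99%. The sequence CAGCTG, an E-box that can bind MyoD and myogenin, occurred in 1 place in the Acta1 promoter and in 1 place in the Acta2 promoter, and in 16.3% of all windows. These matches describe the letters of the windows only.

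Each captured transcript was counted through its unique molecular identifier (UMI), and a level is the UMI count of the summed barcodes of a library or cluster, scaled to a total of 1000000 (CPM). Because a transcript is counted at its 3′ end, CPM can be compared between genes without dividing by length. Barcodes were kept with at least 500 genes and at most 10% mitochondrial UMIs, which left 516 QSC barcodes (1162091 UMIs, median 2155) and 1468 ASC barcodes (8895815 UMIs, median 3502). Median mitochondrial shares were 4.44% and 0.297%, and 2 kept barcodes occurred in both libraries. Ratios carry exact 95% intervals for counting error only, and barcodes of a library are not replicates.

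Both sorts held many barcodes rich in fibre transcripts, which go against the satellite cell label. A barcode was called fibre-rich where 10 fibre genes other than actins gave 5% or more of its UMIs, which held for 100 of 516 QSC barcodes (19.4%) and 883 of 1468 ASC barcodes (60.1%). Fibre-low muscle barcodes, outside the clusters named as non-muscle, were 373 and 472, with medians of 2221 and 7262 UMIs. Within 4% to 6% lay 11 QSC and 127 ASC barcodes. Clustering used no actin gene. QSC fibre-low barcodes lay mainly in cluster 2 (241) and cluster 4 (70), and ASC ones in cluster 1 (246), cluster 4 (98), cluster 10 (45), cluster 5 (43) and cluster 6 (17). Cluster 10 was activated satellite cell/myoblast-like, led by Myog and Mymk, regulators of differentiation and fusion, with Actc1 also among its 10 leading genes. Clusters 1 to 7 and 9 could not be named by the markers. Cluster 2 held Pax7, the satellite cell factor, at 222 CPM in the QSC library. Cluster 4 was led by genes of DNA synthesis and mitosis such as Rrm2 and Birc5. Leading genes were taken from both libraries summed, and in cluster 4 ASC barcodes gave 2635276 UMIs and QSC ones 134065. Whether the QSC barcodes of cluster 4 were cycling was not tested. Cluster 8 was macrophage/monocyte-like and serves as the background for muscle transcripts.

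Of all kept barcodes, the 5 actins took 1.93% of QSC and 2.56% of ASC UMIs. Acta1 had 16789 QSC and 151256 ASC UMIs, or 14447 and 17003 CPM, the highest level of the family in both. Actc1 stood at 6.88 CPM (8 UMIs) and 167 CPM (1485 UMIs). Acta2 stood at 190 and 750 CPM. Actb stood at 3565 and 4736 CPM, and Actg1 at 1043 and 2940 CPM. The order of levels was the same in both libraries, from Acta1 through Actb, Actg1 and Acta2 down to Actc1, and no neighbours in it had overlapping intervals.

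In log2 terms the ASC over QSC ratio over all kept barcodes was 4.60 (3.62 to 5.81) for Actc1, 1.98 (1.79 to 2.18) for Acta2, 1.50 (1.41 to 1.58) for Actg1, 0.41 (0.36 to 0.46) for Actb and 0.24 (0.21 to 0.26) for Acta1. Thus 3 of the 5 were at least 2-fold higher in the ASC library and none was lower, where 15.8% of 11189 genes tested were at least 2-fold higher and 23.8% lower, 39.6% in either direction. The median gene had a log2 ratio of -0.25, and relative to it Acta1 was at 0.49 and Actb at 0.66. These ratios mix kinds of barcodes, so each kind is described on its own.

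Acta1 made up nearly all actin of fibre-rich barcodes. Its level there was 55335 CPM for QSC and 41067 CPM for ASC barcodes. It made up 98.8% of actin UMIs in QSC cluster 9 and from 95.3% to 98.1% in ASC clusters 0 and 3 to 7, which held nearly all ASC fibre-rich barcodes. The ASC over QSC log2 ratio was -0.43 (-0.46 to -0.40), and relative to the median gene it was -0.23. Among ASC fibre-rich barcodes Acta1 ranged from 29450 CPM (28866 to 30042) in cluster 5, led by Mt3, Rrad and the ubiquitin ligase gene Trim63, to 47716 CPM (46860 to 48584) in cluster 6. Clusters 0, 3, 4 and 7 lay between 37340 and 44054 CPM. Every one of these levels was below the 56027 CPM (54975 to 57094) of QSC cluster 9.

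**Figure D1:**
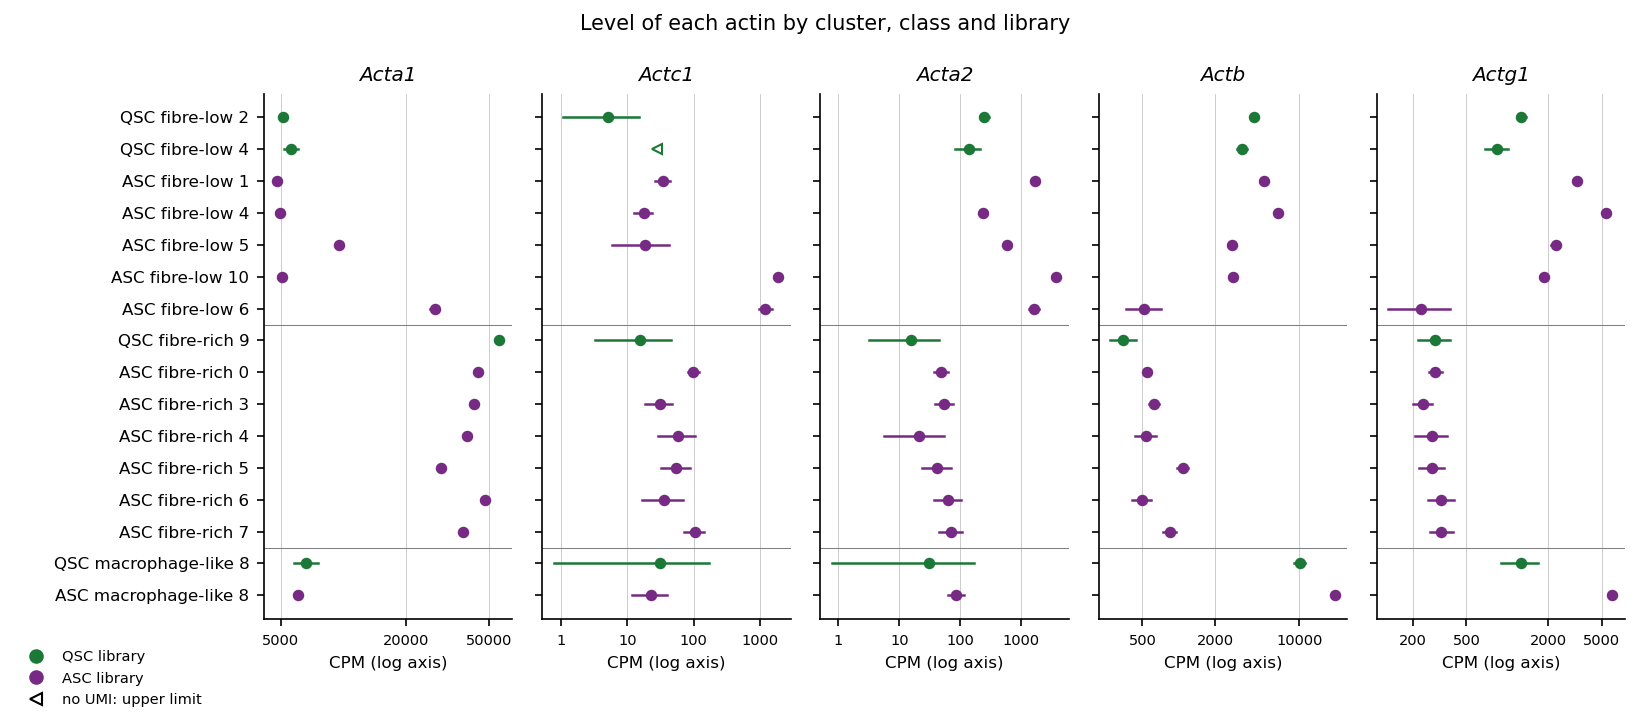
Levels of the 5 actins (CPM, log axis) by library, class and cluster number, with points for the summed barcodes, lines for 95% Poisson intervals and open triangles for the upper limit where no UMI was found. Acta1 stood at 29450 CPM or more in all fibre-rich groups, while Actc1 was highest in ASC fibre-low clusters 10 and 6, Acta2 was highest in cluster 10, followed by clusters 1 and 6 with overlapping intervals, and Actb and Actg1 were lowest in fibre-rich groups and in fibre-low cluster 6.

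Acta1 was also present in every other kind of barcode. In fibre-low muscle barcodes the QSC level was 5391 CPM (5236 to 5549) and the ASC level 5568 CPM (5505 to 5631), with a log2 ratio of 0.0465 (0.0017 to 0.0916). In the macrophage/monocyte-like cluster, which should not make it, fibre-low barcodes held 6642 CPM (5788 to 7587) and 6077 CPM (5870 to 6290). At 1200 UMIs per barcode, an Acta1 UMI was found in 12 of 12 QSC macrophage barcodes and 83 of 83 ASC ones, and in 99.7% and 99.1% of fibre-low muscle barcodes. The summed fibre-low levels lay below those of macrophages, but sums weight deep barcodes more. As a mean over barcodes at 1200 UMIs, Acta1 had 6.55 UMIs in QSC fibre-low muscle barcodes against 8.33 in QSC macrophages, and 9.18 in ASC fibre-low muscle barcodes against 7.45 in ASC fibre-low macrophages. Clusters 5 and 6 were above the ASC macrophages, at 18.8 and 36.2 UMIs, and clusters 1, 4 and 10 below them, at 6.46, 6.80 and 6.04. No Acta1 expression is read from the clusters at or below the macrophage level.

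The ratio of Acta1 to the other fibre transcripts differed between the libraries more than between these kinds of barcodes. Per UMI of the 10-gene fibre list there were 0.577 Acta1 UMIs (0.564 to 0.590) in QSC fibre-rich, 0.607 (0.585 to 0.630) in QSC fibre-low muscle and 0.615 (0.517 to 0.730) in QSC macrophage barcodes. In the ASC library the same ratio was 0.451 (0.448 to 0.454), 0.463 (0.457 to 0.469) and 0.424 (0.406 to 0.441). ASC cluster 10 had 0.465 (0.445 to 0.486) and ASC cluster 1 0.442 (0.431 to 0.453). Fibre-low barcodes of ASC cluster 5 held more Acta1, 9505 CPM (9145 to 9877), at a ratio of 0.491 (0.469 to 0.515). The fibre list moved with Acta1 in all of these groups, and the part of free fibre RNA in the fibre-low values was not tested further.

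The exception by the ratio to the fibre list was a group of 17 ASC barcodes in cluster 6 that were below the fibre-rich threshold. They held 1.16 Acta1 UMIs (1.08 to 1.24) per fibre-list UMI. The 89 fibre-rich barcodes of the same cluster held 0.613 (0.599 to 0.627), and ASC fibre-rich barcodes of the other clusters from 0.409 to 0.493. Per UMI of Ckm, a gene of that list, the 17 barcodes were no exception within their cluster. They held 4.73 Acta1 UMIs (4.25 to 5.28), against 4.85 (4.65 to 5.07) in its fibre-rich barcodes. ASC fibre-rich barcodes of the other clusters held from 2.55 to 3.23. The Acta1 level of the 17 barcodes was 27359 CPM (26142 to 28618), from 8392 CPM in the lowest barcode through a median of 21481 to 67424 in the highest. Their median share of UMIs from the fibre list was 1.93%, and without the 3 barcodes above 4% the level was 25180 CPM (23923 to 26485).

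**Figure D2:**
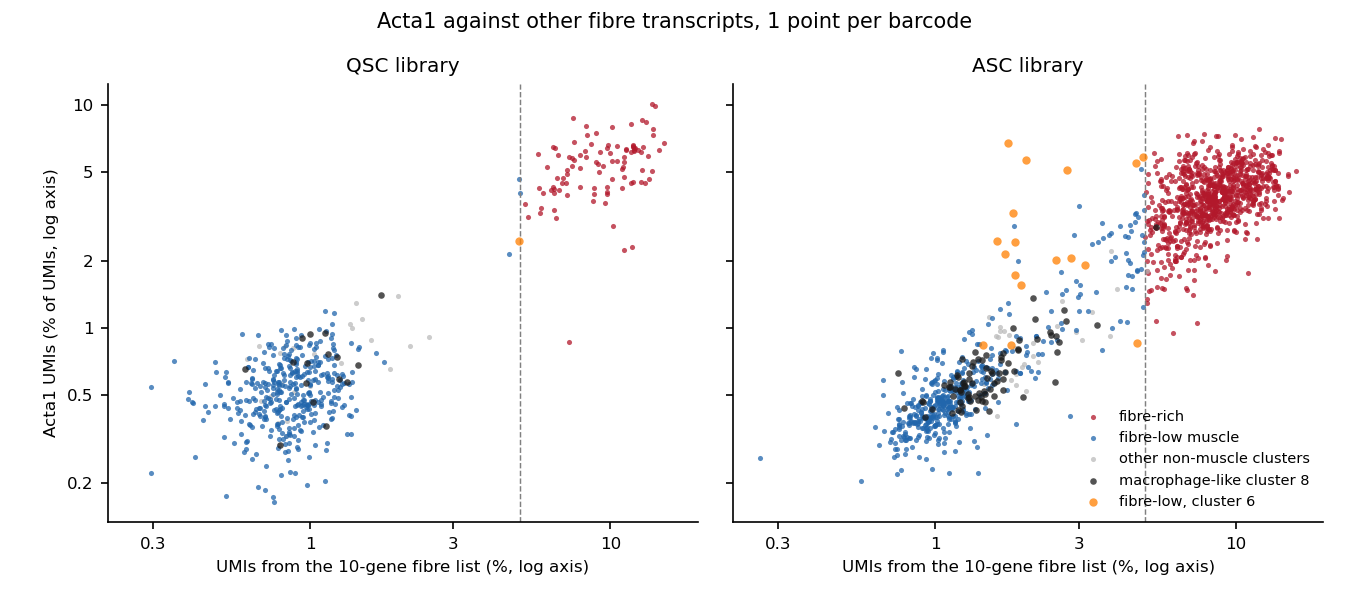
Acta1 share of UMIs against the share from 10 other fibre genes, both in percent on log axes, with 1 point per kept barcode and the dashed line at the 5% threshold. Macrophage-like barcodes lie within the fibre-low muscle barcodes, and most of the 17 ASC fibre-low barcodes of cluster 6 lie above both at the same fibre-list share.

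The 3 muscle actins were all found in the group of those 17 barcodes, though not each of them in every barcode. Actc1 stood there at 1196 CPM (953 to 1483) with a UMI in 12 of 17, and Acta2 at 1643 CPM (1355 to 1974), also in 12 of 17. Actb and Actg1 were at 519 CPM (363 to 718) and 231 CPM (132 to 375), close to their fibre-rich levels. The muscle forms thus made up nearly all of the actin UMIs, with Acta1 at 88.4%, Acta2 at 5.31% and Actc1 at 3.87%. In the fibre-rich barcodes of the same cluster Actc1 and Acta2 were 33.0-fold and 25.5-fold lower, at 36.3 and 64.5 CPM, while Acta1 was 1.74-fold higher (1.66 to 1.83).

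Further genes of the same 17 barcodes, picked after their values were seen and not a tested group, are given as values. Tnnt1 and Tnni1, the slow troponin T and I genes, stood at 12353 and 8274 CPM, against 80.7 and 24.2 CPM in the fibre-rich barcodes of the cluster. Tnnt2, the cardiac troponin T gene that forming muscle also uses, stood at 2220 against 8.07 CPM, and Myl4, an embryonic light chain gene, at 3488 against 20.2 CPM. Myh3, the embryonic myosin heavy chain gene, had 22 UMIs (317 CPM) against none in 247946 UMIs. Myog stood at 461 CPM and Pax7 had no UMI. The smooth muscle and pericyte markers, 9 genes including Myh11 and Rgs5, were all at 0.

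Actc1 was near the limit of detection in quiescent cells. It had 4 UMIs in the 851637 of QSC fibre-low muscle barcodes (4.70 CPM, 1.28 to 12), and at 1200 UMIs it was found in 0 of 369 barcodes, which allows a share of up to 0.995%. In ASC fibre-low muscle barcodes it stood at 233 CPM (221 to 247), with a log2 ratio of 5.64 (4.28 to 7.51), and was found in 11.5% of 460 barcodes (8.75 to 14.8). Without thinning the shares were 1.07% and 26.5%. In ASC macrophages the share at 1200 UMIs was 7.23% (2.70 to 15.1), with a median depth of 6490 UMIs against 7600.

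Within the ASC library, 1071 of the 1485 Actc1 UMIs (72.1%) came from the 45 barcodes of cluster 10, which made up 3.07% of barcodes and 6.58% of UMIs. The level there was 1829 CPM (1721 to 1942), with a UMI in 37 of 45 barcodes and a highest barcode value of 6081 CPM. The fibre-low barcodes of cluster 1 held 34.3 CPM (26.5 to 43.8) and those of cluster 4 17.6 CPM (12.7 to 23.7), around the 22.5 CPM (11.6 to 39.3) of macrophages. The difference between cluster 10 and cluster 1 was 53.3-fold (41.4 to 69.5). At 1200 UMIs Actc1 was detected in 57.8% of cluster 10 barcodes and 4.58% of cluster 1 barcodes, the latter within the macrophage interval. Without cluster 10 the fibre-low log2 ratio was 3.54 (1.97 to 5.83), on 3 QSC and 200 ASC UMIs.

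Fibre-rich barcodes held Actc1 at 70.5 CPM (61.1 to 80.9) in the ASC library, with 98.8 CPM (81.0 to 119) in cluster 0 and 104 CPM (72.0 to 145) in cluster 7, and 30.6 CPM (18.7 to 47.2) in cluster 3. Cluster 7 was led by Ankrd1, Csrp3 and Xirp1, genes of stretched or damaged sarcomeres. Only 3 Actc1 UMIs were found in QSC fibre-rich barcodes, so the log2 ratio of 2.29 ran from 0.73 to 4.58. In summed CPM clusters 0 and 7 lay above ASC macrophages, and cluster 3 did not. At 1200 UMIs Actc1 was detected in 10.1% of fibre-rich cluster 0 barcodes and 9.38% of cluster 7 ones. Both shares lay within the macrophage interval of 2.70% to 15.1%.

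Acta2 was detected in both states and was spread more widely than Actc1. In QSC fibre-low muscle barcodes it stood at 254 CPM (221 to 290), and 10 barcodes held 100 of the 221 QSC UMIs (45.2%). The only QSC barcode in cluster 10 held 24 of the 221. The 10 barcodes together had 28 UMIs of Myog and 9 of Tagln, 1 of the pericyte marker Notch3 and none of Myh11, Rgs5 and Pdgfrb. Over all QSC fibre-low muscle barcodes 8 of the 9 smooth muscle and pericyte markers had a UMI, with Cspg4 at 0, summing to 184 CPM, against 35.4 CPM for all 9 among ASC ones. The part of smooth muscle cells or pericytes in the Acta2 level was not tested.

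In ASC fibre-low muscle barcodes Acta2 stood at 1188 CPM (1159 to 1218), with a log2 ratio of 2.23 (2.03 to 2.43). The share of barcodes with a UMI at 1200 UMIs was 16% (12.4 to 20.1) for QSC and 45.4% (40.8 to 50.1) for ASC, against 0 of 12 and 8.43% (3.46 to 16.6) in macrophages. Unthinned shares were 24.9% and 72.0%. Cluster 10 had the highest level, 3854 CPM (3697 to 4017), with a UMI in 45 of 45 barcodes, and held 33.8% of the ASC UMIs of Acta2. Cluster 1 held 1703 CPM (1645 to 1763) and 48.3% of them. Matrix genes such as Bgn, Col3a1 and Loxl1 were among the 10 leading genes of cluster 1. Its fibroblast markers, a list that includes the gelsolin gene Gsn, summed to 2237 CPM (7 of 8, Pdgfra at 0). They summed to 384 CPM in cluster 10 (2 of 8), 4192 CPM in QSC cluster 2 (8 of 8) and 72716 CPM in the fibroblast-like cluster of the QSC library (8 of 8), and their part in the Acta2 level was not tested. The fibre-low barcodes of cluster 4, led by cell cycle genes, had 235 CPM (216 to 255), which is 7.25-fold (6.63 to 7.94) less than cluster 1 and close to the 250 CPM (211 to 294) of QSC cluster 2. In cluster 10 the markers Myh11, Rgs5, Pdgfrb and Notch3 were at 0, and the list summed to 18.8 CPM. Leaving out the deepest 5% of barcodes raised the fibre-low log2 ratio to 3.25 (3.01 to 3.49).

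The link of Actc1 and Acta2 to Myog was described at 1200 UMIs per barcode, in 114 ASC fibre-low muscle barcodes with a Myog UMI and 346 without. Actc1 was detected in 30.7% (22.4 to 40.0) of the former and 5.20% of the latter. Acta2 was detected in 69.3% (60.0 to 77.6) and 37.6%. Actb went the other way, with 3392 CPM in barcodes with Myog and 4675 CPM in those without, and so did Actg1, at 2098 and 3177 CPM. Acta1 was at 8392 and 7406 CPM. Myog was a leading gene of cluster 10, so this split and the cluster are not independent. In the QSC library only 2 of 369 barcodes had a Myog UMI at this depth, and no comparison was made.

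**Figure D3:**
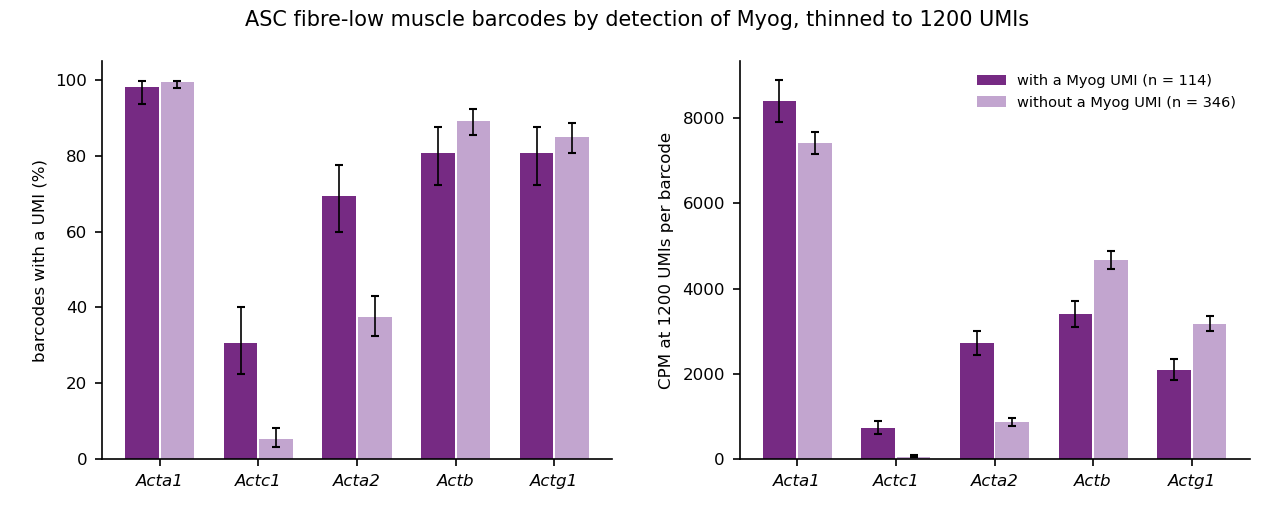
Share of ASC fibre-low muscle barcodes with a UMI of each actin (left, percent) and level (right, CPM) after thinning to 1200 UMIs, with 95% exact intervals, for 114 barcodes with a Myog UMI and 346 without. Actc1 (30.7% against 5.20%) and Acta2 (69.3% against 37.6%) were more frequent beside Myog, and Actb and Actg1 were lower.

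With the mitochondrial limit of 10%, Actg1 differed between the libraries more than Actb. In fibre-low muscle barcodes Actg1 was at 1232 CPM (1158 to 1309) for QSC and at 4030 CPM (3977 to 4084) for ASC, and its log2 ratio was 1.71 (1.62 to 1.80). Actb was at 3937 CPM (3805 to 4073) and 5307 CPM (5246 to 5368), and its log2 ratio was 0.43 (0.38 to 0.48). At the study's limit of 1% mitochondrial UMIs the order turned and the 2-fold call of Actg1 was lost, with log2 ratios of 0.29 (-0.28 to 0.94) for Actg1 on 24 QSC UMIs and 0.72 (-0.01 to 1.56) for Actb on 15. There were 3.20 Actb UMIs per Actg1 UMI (2.98 to 3.43) among QSC barcodes and 1.32 (1.29 to 1.34) among ASC ones. In fibre-low muscle barcodes 3 of the 5 actins (Actc1, Acta2 and Actg1) were at least 2-fold higher in the ASC library and none lower, where 18.3% of 10036 genes were higher and 23.4% lower (41.7% either way).

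The lower Actb to Actg1 ratio of ASC fibre-low muscle barcodes was also seen outside muscle, but not in every group. In fibre-rich barcodes the ratio was higher in the ASC library, at 2.27 (2.10 to 2.47) against 1.21 (0.840 to 1.74). In fibre-low cluster 1 it was 1.81 (1.42 to 2.33) for QSC and 1.54 (1.49 to 1.59) for ASC, and in fibre-low cluster 4 it was 3.98 and 1.25. In the macrophage/monocyte-like cluster Actg1 was 4.73-fold (3.48 to 6.60) higher in the ASC library and Actb 1.96-fold (1.75 to 2.19), and the Actb to Actg1 ratio went from 8.05 (5.81 to 11.4) to 3.33 (3.20 to 3.46). Macrophages held the highest Actb level of all groups, 19757 CPM (19382 to 20138) for ASC and 10101 CPM (9040 to 11251) for QSC barcodes. Among muscle barcodes, fibre-low cluster 4 of the ASC library held 6710 CPM of Actb (6608 to 6814) and 5374 CPM of Actg1, both above cluster 1. Its 98 barcodes had a median of 28326 UMIs. The QSC barcodes of the same cluster held 3348 CPM of Actb and 841 CPM of Actg1, with a median of 1802 UMIs, and differed from the ASC ones by 6.39-fold (5.30 to 7.78) in Actg1. Leaving out the deepest 5% of barcodes lowered the fibre-low log2 ratios to 1.34 for Actg1 and 0.17 for Actb.

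In cluster 10 the cytoplasmic actins were lower than in cluster 1. Actb stood at 2813 CPM (2679 to 2952) against 5069 CPM (4968 to 5171), and Actg1 at 1884 CPM (1774 to 1998) against 3299 CPM (3218 to 3382). In fibre-low cluster 6 they were lower again, by 5.42-fold for Actb and 8.17-fold for Actg1 relative to cluster 10.

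In fibre-rich barcodes Actb was the cytoplasmic gene that differed. QSC barcodes held 335 CPM (261 to 424) and ASC barcodes 675 CPM (646 to 706), with a log2 ratio of 1.01 (0.67 to 1.38). Actg1 was at 278 and 297 CPM, with a log2 ratio of 0.10 (-0.29 to 0.51). Cluster 5 had the highest Actb level among ASC fibre-rich groups, 1079 CPM (969 to 1197), 1.96-fold (1.72 to 2.24) that of cluster 0. With at least 1000 genes per barcode the fibre-rich log2 ratio of Actb was 0.35 (-0.23 to 1.0) on 24 QSC UMIs. Of the 5 actins, Actc1 and Acta2 were at least 2-fold higher in ASC fibre-rich barcodes, on 3 QSC UMIs each. Over all 6161 genes tested there, 20.5% were higher and 10.4% lower (30.9% either way). Actb, at 2.01-fold (1.59 to 2.59), fell just short of 2-fold with 0.5 added to each count, as in the calls over all genes.

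**Figure D4:**
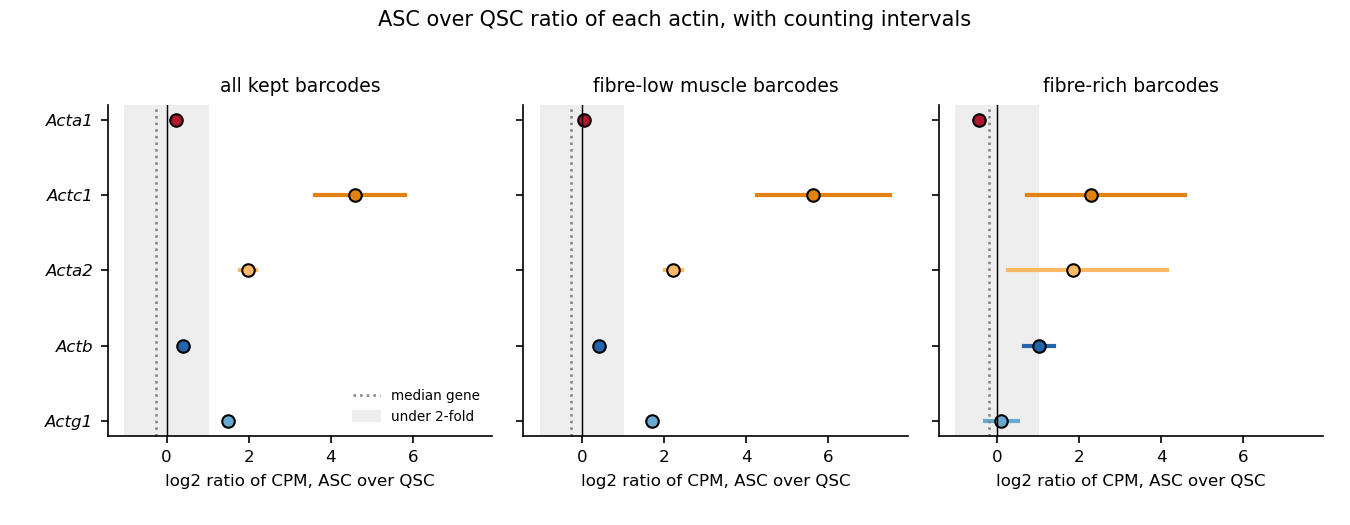
Log2 ratio of CPM, ASC over QSC, for each actin in all kept, fibre-low muscle and fibre-rich barcodes, with points for the ratio, lines for exact 95% counting intervals, grey for changes under 2-fold and a dotted line for the median gene. Acta1 was near 0 in fibre-low barcodes (0.0465) and below 0 in fibre-rich ones (-0.43), and Actg1 was 2-fold higher in fibre-low barcodes but not in fibre-rich ones.

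The make-up of actin UMIs summarised these levels per group. Actb and Actg1 together made up 47.8% (46.8 to 48.8) of actin UMIs in QSC fibre-low muscle barcodes and 57.2% (56.9 to 57.5) in ASC ones, against 1.10% (0.915 to 1.30) and 2.31% (2.22 to 2.39) in fibre-rich barcodes. Without the deepest 5% of barcodes the fibre-low shares were 47.5% (46.4 to 48.5) for QSC and 47.1% (46.7 to 47.6) for ASC, so the difference between the libraries was no longer seen. These shares include whatever Acta1 reached the barcodes as free RNA. Cluster 10 was the group with the most even mix, with 32.7% Acta1, 25% Acta2, 18.2% Actb, 12.2% Actg1 and 11.9% Actc1. In cluster 1 Acta2 made up 11.4% and Actc1 0.230%.

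**Figure D5:**
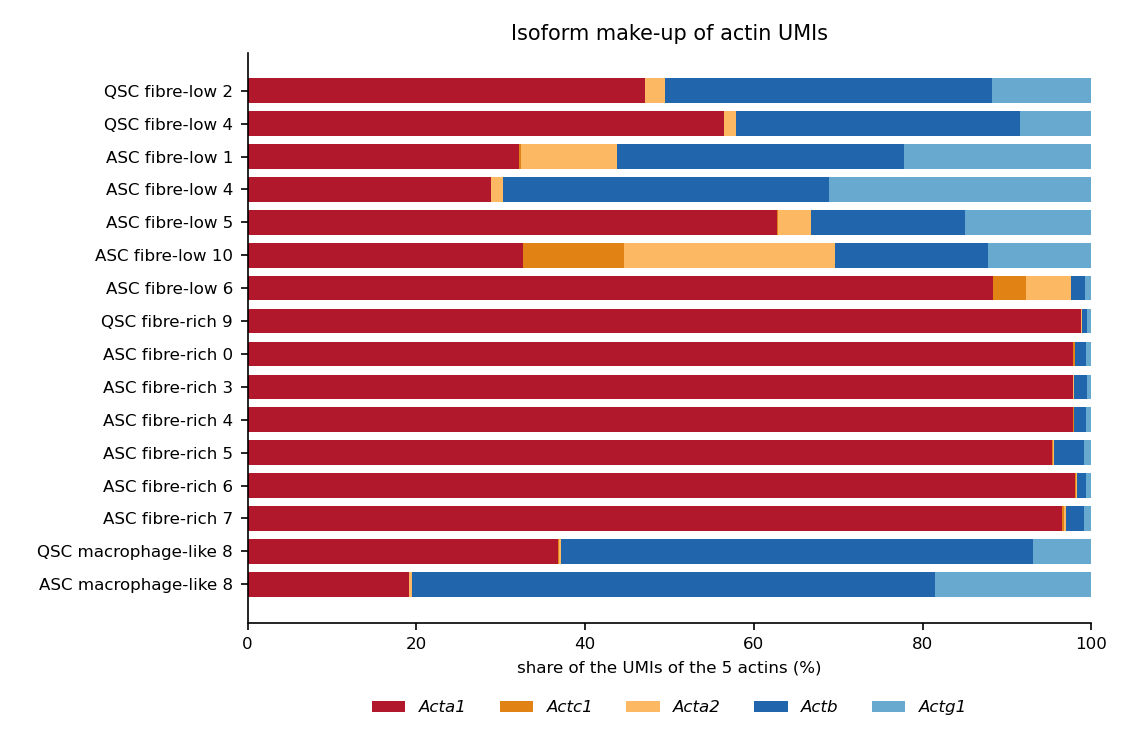
Share of each actin in the UMIs of the 5 genes (percent, stacked to 100) by library, class and cluster number. Fibre-rich groups are almost entirely Acta1, Actc1 exceeds 1% only in fibre-low clusters 10 (11.9%) and 6 (3.87%) of the ASC library, and Acta2 is largest in cluster 10 (25%).

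The genes whose levels followed each actin over 13 combinations of cluster and library with at least 20 barcodes were taken from the 3097 genes that reached 100 CPM. Acta1 was most like Tnnc2 (Pearson's r = 0.993), Myl1, Tnnt3 and Tpm1, which encode proteins of the fast sarcomere, and Eef1a2. Actc1 was most like Fndc5 (0.861), Myog (0.848), Inppl1, Tnnt2 and Map2k2. Acta2 was most like C1qtnf3 (0.903), Hes6, Slc29a1, Mest and Ifi27. Actb was most like Anxa1 (0.979), Serp1, Arpc5, Ifitm2 and Msn, and Actg1 like Eno1 (0.973), Baz1a, Rtn3, Cfl1 and Erp29. Actb and Actg1 resembled each other (0.934), while Acta1 ran opposite to both (-0.869 and -0.853). The combinations share libraries, depth and free RNA, so these values are descriptions.

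Genes that handle actin were described by lists, beside the background of 18.3% higher and 23.4% lower and a median log2 ratio of -0.11 over all genes tested in fibre-low muscle barcodes. Of 8 genes of the monomer pool and filament turnover, 5 were at least 2-fold higher in the ASC library and 1 lower, with a median log2 ratio of 1.35. Tmsb10, a thymosin that sequesters monomer, went from 953 to 4182 CPM (log2 ratio 2.13, 2.03 to 2.24), and Pfn1, the monomer-binding profilin, from 636 to 2161 CPM (1.76, 1.64 to 1.89). Wdr1, which helps cofilin take filaments apart, was at 1.76 (1.23 to 2.34). Gsn, the severing protein gelsolin, was lower, at 3157 and 515 CPM (-2.62, -2.69 to -2.54). Gsn is also abundant in fibroblasts and is itself 1 of the 8 fibroblast markers. With Gsn counted, the markers summed to 4094 CPM (8 of 8 with a UMI) in QSC fibre-low muscle barcodes. In ASC ones they summed to 944 CPM (7 of 8, Pdgfra at 0). Gsn gave most of both sums, so they do not measure fibroblast RNA apart from Gsn. The part of fibroblast RNA in the Gsn value was not tested.

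Of the 9 genes of the Arp2/3 complex, which nucleates branched filaments, 3 were higher and none lower (median 0.46): Arpc1b at 107 and 430 CPM (2.01, 1.70 to 2.33), Actr3 at 1.13 and Arpc4 at 1.13. None of the 10 general filament genes, such as Actn4 and Flna, passed 2-fold (median 0.17). Of 14 muscle filament genes 2 were higher and 1 lower (median 0.06), with Neb, the nebulin that spans the thin filament, at -1.22 (-1.75 to -0.66). Lmod3, a nucleator of thin filaments, was at 1.26 (0.16 to 2.61) on 7 QSC UMIs, and Xirp1 at 1.68 (-0.26 to 4.77) on 2. Flnc, the muscle filamin, went from 121 to 67.4 CPM (-0.84, -1.16 to -0.51) and did not pass 2-fold.

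Of 3 tested genes of SRF and its cofactors only Mrtfb passed 2-fold, at 17 and 30 UMIs (-1.86, -2.76 to -0.91). The 12 tested SRF targets outside the actins had 4 higher and 4 lower (median 0.22), and 3 higher with Fhl2, which had no QSC UMI, at the floor of 3 counts. Fos, Egr1, Ccn1 and Ccn2, which respond within the first hour of a stimulus, were lower, with Fos at 8654 and 881 CPM (-3.30, -3.35 to -3.24) and Ccn2 at -3.36 (-4.30 to -2.47). Tagln2 (1.42, 1.21 to 1.64), Cnn2 (1.60, 0.43 to 3.07) and Zyx (1.03, 0.59 to 1.51), which encode proteins on filaments and adhesions, were higher. Fhl2 had 30 ASC UMIs, at least 1.56-fold higher against that floor.

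In fibre-rich barcodes the lists were read against 20.5% higher and 10.4% lower and a median of 0.13 over all genes tested. The monomer and turnover genes had 5 higher and 1 lower of 7 tested, the Arp2/3 complex 5 higher of 9, and the muscle filament genes 3 higher and 2 lower of 14. Medians were 1.21, 1.76 and 0.01, and 0.56 for the Arp2/3 complex with Actr2 and Arpc5, which had no QSC UMI, at the floor, where 3 of its 9 genes were higher. Of the 8 general filament genes tested 3 were higher, with a median of 0.42. Tpm4 and Flna had no QSC UMI, and at the floor 1 gene was higher and the median was -0.23. Xirp1, which marks damaged myofibrils, went from 4.79 to 93.3 CPM on 1 QSC UMI (4.28, 1.79 to 9.59). Flnc went from 4.79 to 53.0 CPM, also on 1 (3.47, 0.97 to 8.78), opposite in direction to its change in fibre-low muscle barcodes. Neb went from 532 to 112 CPM (-2.25, -2.57 to -1.93) and Lmod2 from 153 to 66.6 CPM (-1.20, -1.75 to -0.61). Of the 6 SRF targets tested there, 1 was higher and 3 lower (median -0.32). Zyx, with no QSC UMI, was that 1 gene, and at the floor none was higher and the median was -0.38. The 1 tested gene of SRF and its cofactors was not past 2-fold.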

How the data were processed

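Cells of 2 sorted populations were profiled with droplet-based 3′ single-cell RNA-seq (10x Genomics, single cell 3′ v2). The deposited counts, whole UMI numbers per gene and barcode, were made by the authors with Cell Ranger, version 6.0.2 in the file headers, whereas the submitters' processing notes name 7.1.0 and the mm10 build. The handling of strand is not given in the sources used here. Of 766 QSC and 1650 ASC barcodes, those with at least 500 genes and at most 10% of UMIs from 13 mitochondrial genes were kept, since the study's limit of 1% left 86 and 948. No doublets were removed.

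UMIs were summed per group and scaled to 1000000. Intervals are exact at 95% (Poisson for levels, Clopper-Pearson for shares, conditional binomial for ratios) and cover counting error only. The floor, 3 counts, equals 2.58 CPM (QSC) and 0.337 CPM (ASC). A gene was called at least 2-fold changed with 0.5 added to each count, among genes with at least 20 UMIs over both libraries, and no p-value was computed. Shares were compared after thinning barcodes to 1200 UMIs. Clusters came from Seurat 5.3.0 with the study's settings (10 principal components, resolution 0.6) without the actins, and were named by at least 2 fixed markers among the 10 leading genes. TMM factors came from edgeR 4.0.16. Identifiers of 32158 of the 32285 features (99.6%) were in GENCODE M21. Named genes were the actins and the 5 genes most like each actin. In each partner list mainly those with the largest ratios in fibre-low muscle barcodes were named. Flna and Lmod2 were named outside this rule. The code for calls and ratios was tested on simulated data. The members and lists were chosen with earlier results of these data known.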

Additional observations from a re-analysis of the deposited data

Results flagged for a closer look

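Acta1 stood out because in the main setting its direction differed with the kind of barcode. Its log2 ratio, ASC over QSC, was 0.0465 in fibre-low muscle barcodes and -0.43 in fibre-rich barcodes. The fibre-low ratio lay near 0 and turned negative at the 1% mitochondrial limit, at a fibre-rich threshold of 2.5% and without cluster 6. With 1 library per group, the difference between these ratios was not tested. The summed fibre-low level was below that of macrophage-like barcodes in both libraries, while the mean over ASC barcodes at 1200 UMIs was above it (9.18 against 7.45 UMIs).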

How the results depend on the processing

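Alternatives left 94 values within their counting interval, moved 76 and reversed the sign of 5, all 5 of Acta1. Its ratios in the main setting were 0.24 over all kept and 0.0465 in fibre-low barcodes, and the reversals reached -0.68 and -0.38. The cause of the reversals was not tested. No paired analysis was possible because each group has 1 library. The exclusions of clusters 10 and 6 and a second thinning draw were chosen after seeing the data. Log2 ratios are ASC over QSC. With at most 1% mitochondrial UMIs the values were, over all kept barcodes Acta1 -0.68, Actc1 2.37, Acta2 2.37 and Actb 2.24, then in fibre-low barcodes Acta1 -0.38, Acta2 1.58, Actb 0.72 and Actg1 0.29, then cytoplasmic share in fibre-low QSC 28.1% and ASC 40.3%, then in fibre-rich barcodes Acta1 -0.47. With at most 5% mitochondrial UMIs the values were, over all kept barcodes Acta1 -0.10, then in fibre-low barcodes Actb 0.34 and Actg1 1.60, then cytoplasmic share in fibre-low QSC 49.5%. Scaled to totals without the fibre list and actins the values were, over all kept barcodes Acta1 0.26, then in fibre-rich barcodes Acta1 -0.46. With the median gene set to 0 the values were, over all kept barcodes Acta1 0.49, Acta2 2.23, Actb 0.66 and Actg1 1.75, then in fibre-low barcodes Acta1 0.32, Acta2 2.5, Actb 0.70 and Actg1 1.98, then in fibre-rich barcodes Acta1 -0.23. With TMM factors the values were, over all kept barcodes Acta1 0.54, Acta2 2.29, Actb 0.72 and Actg1 1.80, then in fibre-low barcodes Acta1 0.35, Acta2 2.53, Actb 0.74 and Actg1 2.02, then in fibre-rich barcodes Acta1 -0.28. Without the deepest 5% of barcodes the values were, over all kept barcodes Acta1 0.60, Acta2 2.57, Actb 0.25 and Actg1 1.01, then in fibre-low barcodes Acta1 0.19, Acta2 3.25, Actb 0.17 and Actg1 1.34, then cytoplasmic share in fibre-low ASC 47.1% (QSC 47.5%). With at least 1000 genes per barcode the values were, over all kept barcodes Acta1 0.76, Acta2 1.51 and Actb 0.21, then in fibre-low barcodes Acta1 0.15, Acta2 1.76 and Actb 0.26, then cytoplasmic share in fibre-low QSC 52.3% and ASC 57.9%, then in fibre-rich barcodes Acta1 -0.37 and Actb 0.35, then cytoplasmic share in fibre-rich QSC 1.38% and ASC 2.12%. With a fibre-rich threshold of 2.5% the values were, in fibre-low barcodes Acta1 -0.0635, then cytoplasmic share in fibre-low ASC 59.9%, then in fibre-rich barcodes Acta1 -0.48, then cytoplasmic share in fibre-rich ASC 3.06%. With a fibre-rich threshold of 10% the values were, in fibre-low barcodes Acta1 0.39, Acta2 1.99, Actb 0.23 and Actg1 1.46, then cytoplasmic share in fibre-low QSC 29.7% and ASC 32.1%, then in fibre-rich barcodes Acta1 -0.39, then cytoplasmic share in fibre-rich ASC 1.67%. Without cluster 10 the values were, over all kept barcodes Acta1 0.30, Actc1 3.04 and Acta2 1.64, then in fibre-low barcodes Actc1 3.54, Acta2 1.94, Actb 0.51 and Actg1 1.80, then cytoplasmic share in fibre-low ASC 60.2%. Without cluster 6 the values were, in fibre-low barcodes Acta1 -0.0184, then cytoplasmic share in fibre-low ASC 58.5%. Actc1 in fibre-low barcodes at the 1% limit had no QSC UMI and no value. Without the filter on low counts 8249, 8120 and 6043 genes were called in all kept, fibre-low and fibre-rich barcodes, against 4430, 4180 and 1902. At resolutions of 0.3 and 1.0 the cluster highest in Actc1 and Acta2 again held 43 and 45 ASC barcodes. Depth limits QSC values of Actc1 and, in fibre-rich barcodes, of Acta2, which rest on 8 UMIs at most.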

Other observations

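Barcodes that did not pass the limits on genes and mitochondrial UMIs were rich in Acta1. The 250 QSC barcodes left out held 183929 UMIs with Acta1 at 46784 CPM, Actb at 729 CPM and Actg1 at 277 CPM. The 182 ASC barcodes left out held 163992 UMIs with Acta1 at 21538 CPM, Actb at 2653 CPM and Actg1 at 1134 CPM. Actc1 had 8 UMIs in each of these sets, and Acta2 70 and 19.

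Fibre-low muscle barcodes of cluster 5 in the ASC library (43 barcodes, median 3159 UMIs) held Acta2 at 593 CPM (505 to 691), Actb at 2755 CPM (2563 to 2959) and Actg1 at 2275 CPM (2101 to 2461), between the levels of ASC cluster 1 and of fibre-rich barcodes. The 10 ASC barcodes of cluster 2, otherwise a QSC cluster, held more Actg1 than Actb in the sum, with 5515 CPM (5142 to 5908) and 2972 CPM (2700 to 3264), a ratio of 0.539 Actb UMIs per Actg1 UMI (0.479 to 0.606). A few deep barcodes carried this sum, since the median barcode had 20.9 Actb and 15 Actg1 UMIs per 10000, and at 1200 UMIs per barcode there were 38 and 43 UMIs. The neutrophil-like barcodes of the ASC library had Actb at 11231 CPM (10260 to 12270) and 4.86 Actb UMIs per Actg1 UMI (3.92 to 6.08).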
